A study of Mus musculus with 8 samples.

Results

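Selplg, Spn, Pecam1, Cd44, Cd47, F11r, Ninj1 and Alcam encode surface proteins with which blood leukocytes touch selectins, the vessel wall and one another. Every probe set annotated to exactly one of these 8 symbols was taken, which gave 24 of the 45037 probe sets that are not array controls. The arrays were Affymetrix genome-wide mouse 3' expression arrays. They carried RNA of monocytes of 12-week-old C57Bl/6 mice, for which the labels name neither a treatment nor the tissue the leukocytes came from. Sorting had split the monocytes by Gr1 level into Ly6Chi (labelled Gr1hi) and Ly6Clo (labelled Gr1lo) cells, and the question was how these subsets differ. Each subset had 4 samples, each from a separate sort of leukocytes pooled from 5 mice, so the values describe pools and not single animals. Human monocytes, which the design also describes, were not analysed here.

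A leukocyte leaves the blood in steps. It tethers and rolls on selectins through mucin-like ligands such as PSGL-1 (Selplg), CD43 (Spn) and CD44, then arrests through integrins, and finally crosses between endothelial cells through contacts that involve PECAM-1 (Pecam1), JAM-A (F11r) and other immunoglobulin-family proteins such as ALCAM. CD47 is the ligand of the inhibitory receptor SIRP alpha and also takes part in transmigration, and ninjurin 1 (Ninj1) is a homophilic adhesion protein that also ruptures the plasma membrane of dying cells. Classical Ly6Chi monocytes are known to enter inflamed tissue, and nonclassical Ly6Clo monocytes are known to crawl along the endothelium.

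By the brightest tested probe set of each gene, Ly6Clo monocytes had far more signal for Spn and Pecam1. They had slightly more for Cd47, F11r and Alcam, and Ly6Chi monocytes had more signal for Ninj1. Selplg and Cd44 were not called. Of the tested probe sets, 1 of 2 was called for F11r, 1 of 5 for Alcam and 1 of 3 for Cd44, all higher in Ly6Clo. With the mean of a gene's probe sets, the call of Alcam was lost and Cd44 was called. Spn was 3.85-fold higher in Ly6Clo, Pecam1 at least 2.94-fold higher in Ly6Clo and Ninj1 2.45-fold higher in Ly6Chi. Differences were tested with limma on log2 intensities over all 22831 probe sets that passed a filter on dim signal (over the median of all probe sets, intensity 81.9 or log2 6.36, in at least 4 of the 8 arrays). A difference counted as called when its p, adjusted by Benjamini-Hochberg over all of these probe sets, was under 0.05. All 8 genes had a tested probe set, and 23 of the 24 probe sets were tested. With each gene represented by its brightest tested probe set, 6 of the 8 genes were called, beside 32.5% of all 11546 genes tested. Of the 6, 5 pointed toward Ly6Clo (14.1% of all genes) and 1 toward Ly6Chi (18.5%). The 8 genes and the lists of partner genes below were chosen with earlier results of these data known. Counts set beside shares of all genes are therefore descriptions and do not test for an excess. The arrays of one subset all lay above those of the other for 6 of the 8 genes (33.9% of all genes), and 3 differed at least 2-fold and were called (3.88%). Pecam1 passed the filter through Ly6Clo alone, which fixed its direction and its lack of overlap and favoured its call. Without it 5 of 7 genes were called, 5 of 7 did not overlap and 2 differed at least 2-fold. The median signed log2 difference, Ly6Clo minus Ly6Chi as everywhere below, was 0.28 over these 7 genes and -0.01 over all genes. Over probe sets, 12 of 23 were called, beside 31.1% of all probe sets: 9 toward Ly6Clo (15.2% of all) and 3 toward Ly6Chi (15.9%). Of these, 6 differed at least 2-fold (3.51% of all), and 12 of the 23 did not overlap between subsets (31.8%); each of these counts but the 3 toward Ly6Chi includes the Pecam1 probe set.

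**Figure D1:**
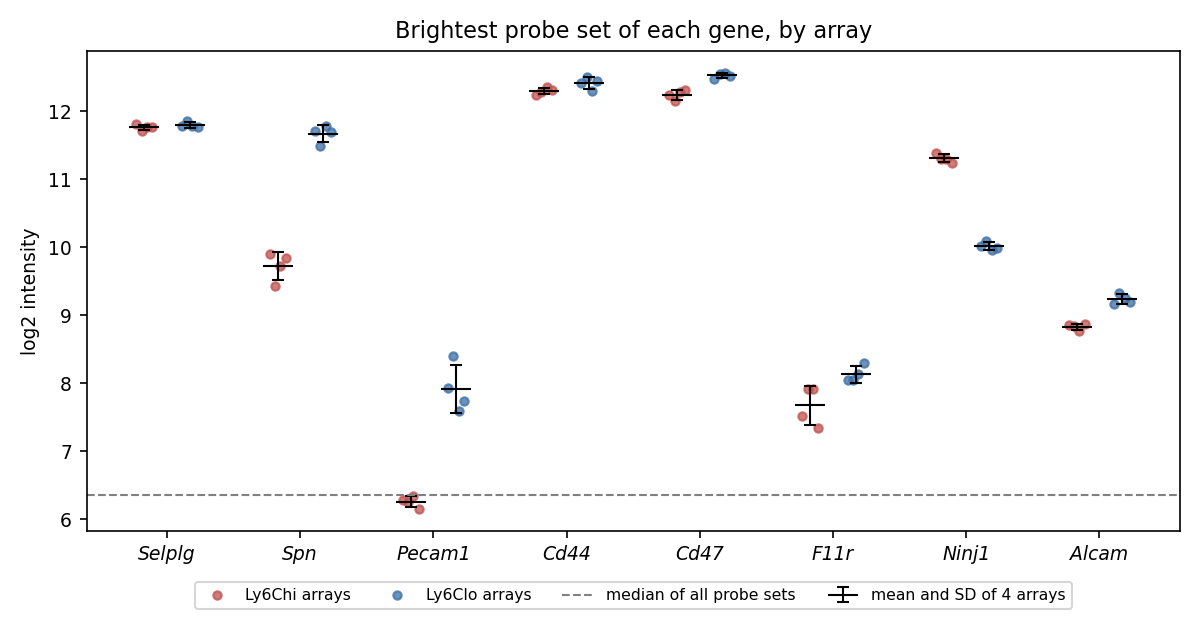
Log2 intensity (vertical axis) of the brightest tested probe set of each gene in the 4 Ly6Chi and 4 Ly6Clo arrays, with the mean and SD of 4 arrays and the median of all probe sets as a dashed line at 6.36. The subsets are apart for Spn, Pecam1, Cd47, F11r, Ninj1 and Alcam and overlap for Selplg and Cd44; the Ly6Chi arrays of Pecam1 lie below the dashed line.

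Ly6c expression matched the labels. A probe set annotated jointly to Ly6c2 and Ly6c1, genes of the sorted epitope, was 12.8-fold higher in Ly6Chi. All 11 measured monocyte markers passed the filter on dim signal, with summed intensities of 74891 to 76362 in Ly6Chi and 70492 to 73155 in Ly6Clo. These sums did not overlap, and 4 of the markers were called toward Ly6Clo and 4 toward Ly6Chi. Array medians lay between 80.6 and 83.1, no array was identical to another, and the first principal component (75.7% of the variance) separated the subsets. Precision is set by the 8 arrays, with a median SE of 0.08 per log2 difference over the probe sets tested. RNA was of bulk sorts, so fewer cells of a type and less RNA per cell cannot be told apart. Of the markers of other cells, sums overlapped between subsets for T cells (6 of 9 measured markers tested, 0 called), B cells (7 of 9 tested, 1 called toward Ly6Clo and 3 toward Ly6Chi), dendritic cells (8 of 9 tested, 1 and 2 called) and red cells (4 of 6 tested, 0 called). Of 9 eosinophil and basophil markers, 8 were below the median of all probe sets in every array.

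The promoters of Spn and Ninj1 are shown because they had the largest called difference in each direction among the genes measured over the dim-signal limit in both subsets; Pecam1, with only a lower bound, could not be ranked against Spn. The windows are the 250 bases before a RefSeq start site (build GRCm38.p6), read 5′ to 3′ on the gene's strand, for which 6 of the 8 genes were matched. Capitals mark matches on either strand to CACCC, the core of elements bound by Krüppel-like factors (reverse complement GGGTG), and to the GC box GGGCGG (reverse complement CCGCCC). No marked matches overlap in these windows.
Spn, chr7:127137824-127138073, minus strand: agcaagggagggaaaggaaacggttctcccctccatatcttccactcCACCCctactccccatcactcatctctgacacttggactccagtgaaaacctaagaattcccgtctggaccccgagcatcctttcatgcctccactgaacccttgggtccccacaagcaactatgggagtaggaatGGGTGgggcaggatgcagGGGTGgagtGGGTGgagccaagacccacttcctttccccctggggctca
Ninj1, chr13:49187279-49187528, plus strand: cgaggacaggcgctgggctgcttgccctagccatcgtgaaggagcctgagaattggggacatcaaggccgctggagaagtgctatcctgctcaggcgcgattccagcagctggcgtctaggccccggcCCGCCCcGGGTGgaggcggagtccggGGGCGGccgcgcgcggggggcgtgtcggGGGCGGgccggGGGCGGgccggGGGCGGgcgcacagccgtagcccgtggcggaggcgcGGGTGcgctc
The Spn window held 4 CACCC matches and no GC box, 3 CpG dinucleotides and 56.8% G or C. The Ninj1 window held 2 CACCC matches and 5 GC boxes, 31 CpG dinucleotides and 76% G or C. Of 32851 windows of the same length, 52% held a CACCC match and 32.7% a GC box. These matches describe the letters only.

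Among the selectin ligands, Selplg encodes PSGL-1, the main leukocyte ligand of P-selectin. Its single probe set read 11.81, 11.72, 11.78 and 11.77 in the Ly6Chi arrays and 11.79, 11.86, 11.78 and 11.77 in the Ly6Clo arrays (log2 intensity, replicates 1 to 4). The subsets overlapped within this narrow range, with the lowest array in Ly6Chi and the highest in Ly6Clo. The difference was 0.03 (95% interval -0.09 to 0.16; limma adjusted p = 0.75) and was not called; the interval holds changes of either sign up to its bounds.

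Spn encodes CD43 (leukosialin), a heavily O-glycosylated mucin that serves as an E-selectin ligand on some leukocytes and whose large size also counters adhesion. Its brighter probe set read 9.90, 9.43, 9.73 and 9.84 in Ly6Chi and 11.72, 11.50, 11.78 and 11.69 in Ly6Clo. Every Ly6Clo array lay above every Ly6Chi array by a wide margin, and replicate 2 was the lowest of each subset. The difference was 1.95 (SE 0.10, limma adjusted p = 1.0e-07), and Spn ranked 59 of 11546 genes by difference toward Ly6Clo. The second probe set, which read 8.11 to 8.62 in Ly6Chi and 10.28 to 10.48 in Ly6Clo, gave 4.08-fold (difference 2.03, SE 0.10, adjusted p = 5.7e-08). The differences of the 2 probe sets were 0.08 apart (exact permutation test, p = 0.20, adjusted p = 0.24 over the 6 genes with 2 or more tested probe sets).

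CD43 is also abundant on T and natural killer cells, so their markers are given beside Spn. Summed intensity of 9 natural killer cell markers was 862 to 960 in Ly6Chi and 1144 to 1398 in Ly6Clo, which do not overlap; 2 of the 4 tested, Klrd1 and Gzma, were called higher in Ly6Clo and Eomes, Klra1 and Klre1 were below the median of all probe sets everywhere. Klrd1 stood at 6.43 in Ly6Chi and 8.10 in Ly6Clo. Summed T cell markers were 863 to 992 and 861 to 1039, which overlap. The part of natural killer cells in the Spn difference was not tested.

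Cd44 encodes the hyaluronan receptor, which also carries selectin-binding glycans. Its brightest probe set read 12.24, 12.29, 12.35 and 12.31 in Ly6Chi and 12.42, 12.50, 12.30 and 12.44 in Ly6Clo. Only Ly6Clo replicate 3 fell within the range of the Ly6Chi arrays. The difference was 0.12 (95% interval -0.02 to 0.26, limma adjusted p = 0.20), and the second probe set gave 0.15 (adjusted p = 0.18), neither called. The third did not overlap, with 10.20 to 10.35 in Ly6Chi and 10.52 to 10.86 in Ly6Clo, and was called 1.30-fold higher in Ly6Clo (difference 0.37, SE 0.08, adjusted p = 0.0036). Its difference exceeded that of the brightest by 0.26, which missed the threshold when every pair of probe sets of a gene was compared after seeing the data (exact permutation test, p = 0.029, adjusted p = 0.15 over 31 pairs). With the mean of its probe sets Cd44 was called higher in Ly6Clo (0.21, adjusted p = 0.022). The fourth probe set was not tested, at 4.78 to 5.04 in Ly6Chi and 5.01 to 5.20 in Ly6Clo, below the median of all probe sets in every array.

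Among the molecules of endothelial contact, Pecam1 encodes PECAM-1 (CD31), an immunoglobulin-family protein that binds itself across cell borders and recruits phosphatases through its inhibitory motifs. Its single probe set read 6.28, 6.25, 6.34 and 6.15 in Ly6Chi and 7.93, 8.40, 7.59 and 7.74 in Ly6Clo. All Ly6Chi arrays lay below the median of all probe sets and all Ly6Clo arrays above it, so the probe set passed the filter through Ly6Clo alone and had to differ. Set against that median as a stand-in for background, Pecam1 was at least 2.94-fold higher in Ly6Clo. The measured means were 6.26 ± 0.08 (SD, n = 4) in Ly6Chi and 7.91 ± 0.35 (SD, n = 4) in Ly6Clo, with the larger spread in Ly6Clo, and no test or rank is given.

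PECAM-1 is best known from endothelial cells and platelets. Of 12 endothelial markers, 7 were below the median of all probe sets in every array, among them Cdh5, Tek and Tie1, which define that cell. The summed intensity of the 12 was nevertheless 840 to 939 in Ly6Chi and 972 to 1129 in Ly6Clo, without overlap. Of the 4 tested, 1 was called: Vwf, von Willebrand factor, stored by endothelium and platelets, which stood at 6.84 in Ly6Chi and 8.17 in Ly6Clo (difference 1.33, SE 0.24, limma adjusted p = 0.0013). Summed platelet markers, 10 measured and tested and 0 called (median difference 0.24), were 5808, 3410, 3616 and 2460 in the Ly6Chi arrays and 7428, 4191, 2805 and 4734 in the Ly6Clo arrays. The platelet sums of the subsets overlapped. The part of platelets and of Vwf-bearing cells in the Pecam1 difference was not tested.

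F11r encodes JAM-A, a junctional immunoglobulin-family protein and a ligand of the integrin LFA-1. Its brighter probe set read 7.52, 7.92, 7.92 and 7.34 in Ly6Chi and 8.04, 8.05, 8.13 and 8.30 in Ly6Clo. The subsets came close without overlapping, and the Ly6Chi arrays were the more scattered. F11r was called 1.37-fold higher in Ly6Clo (difference 0.46, SE 0.13, limma adjusted p = 0.017). The call was lost without Ly6Clo replicate 4 (difference 0.40, adjusted p = 0.053) and, chosen after seeing the data, without both samples numbered 1 (difference 0.44, adjusted p = 0.065). The dimmer probe set lay near the median of all probe sets, at 6.30 to 6.52 and 6.33 to 6.74, and was not called (difference 0.15, adjusted p = 0.27).

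Alcam encodes CD166, which binds itself and the lymphocyte receptor CD6. Its brightest probe set read 8.85, 8.85, 8.77 and 8.87 in Ly6Chi and 9.17, 9.33, 9.26 and 9.20 in Ly6Clo. The subsets were clearly apart, and Alcam was called 1.33-fold higher in Ly6Clo (difference 0.41, SE 0.06, limma adjusted p = 3.6e-04). The other 4 probe sets overlapped between subsets and were not called, with differences of 0.10, 0.14, 0.10 and 0.38. The brightest exceeded the second brightest by 0.30 in its difference (exact permutation test, p = 0.057, adjusted p = 0.24). With the mean of its 5 probe sets Alcam was not called (difference 0.23, adjusted p = 0.076), so the call rests on the choice of probe set.

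Cd47 had 5 tested probe sets, and the 3 bright ones were called higher in Ly6Clo. The brightest read 12.23, 12.14, 12.28 and 12.31 in Ly6Chi and 12.47, 12.55, 12.57 and 12.52 in Ly6Clo. The ranges were narrow and did not overlap, for a difference of 1.22-fold (0.28, SE 0.06, limma adjusted p = 0.0041). The next 2 gave 0.22 (adjusted p = 0.014) and 0.21 (adjusted p = 0.035). The third of these calls was lost without any one of 5 of the 8 arrays, namely Ly6Chi replicates 2 and 3 and Ly6Clo replicates 2, 3 and 4 (differences 0.17 to 0.24 over all 8 omissions, adjusted p = 0.027 to 0.097). The 2 dim probe sets read 6.60 to 7.16 and 6.30 to 6.68 in Ly6Chi, overlapped with Ly6Clo and differed by 0.02 and 0.07.

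Ninj1 was the one of the 8 genes higher in Ly6Chi. Its brightest probe set read 11.39, 11.30, 11.30 and 11.25 in Ly6Chi and 10.03, 10.09, 9.96 and 9.98 in Ly6Clo. Each subset held within a narrow range, more than a log2 unit apart. The difference was -1.30 (SE 0.06, limma adjusted p = 4.3e-08), ranking 131 of 11546 genes toward Ly6Chi. The suffix of this probe set marks probes that may also match other transcripts. The probe set without such a suffix read 8.97 to 9.27 in Ly6Chi and 7.71 to 8.06 in Ly6Clo, a 2.37-fold difference (-1.25, SE 0.09, adjusted p = 1.1e-06), and another gave 2.28-fold (-1.19). The fourth and dimmest overlapped, at 7.11 to 7.40 in Ly6Chi and 6.97 to 7.31 in Ly6Clo, and was not called (-0.17, adjusted p = 0.18). The brightest minus the dimmest gave -1.13 for the gap between their differences (exact permutation test over all pairs, p = 0.029, the smallest 70 orders can give, adjusted p = 0.15 over 31 pairs). As for Cd44 and Alcam, the adjusted threshold could be met only if most of the 31 pairs reached this p.

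**Figure D2:**
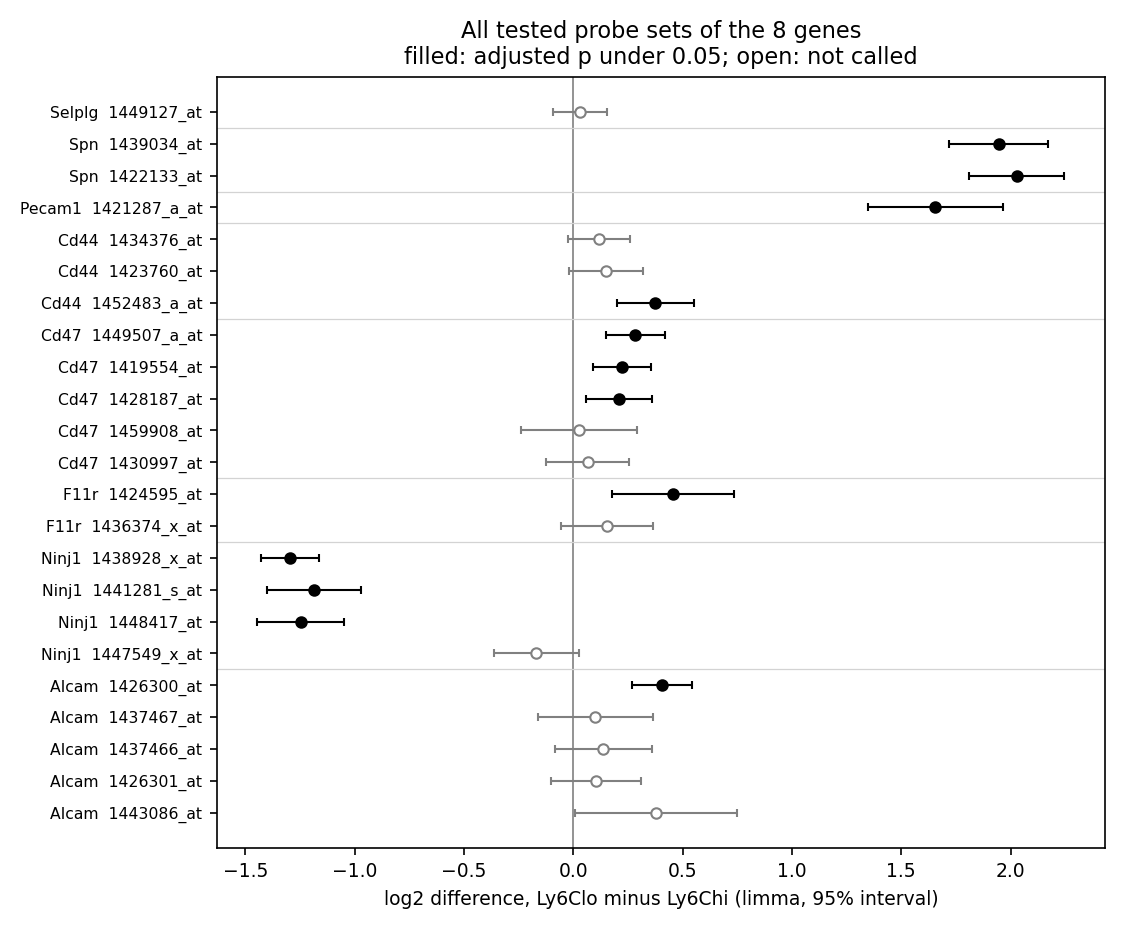
Log2 difference, Ly6Clo minus Ly6Chi (horizontal axis), with its 95% limma interval for each of the 23 tested probe sets; filled points are called and open points are not. Both Spn probe sets lie near 2, 3 of 4 Ninj1 probe sets between -1.30 and -1.19, and 1 of 5 Alcam probe sets is called.

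Selectin ligands work only when decorated with the right glycans and sulfate, so the enzymes that make them were set beside the ligands. Of 18 listed genes of selectins and ligand synthesis, 17 were measured and 16 tested; 8 were called (32.5% of all genes were), 2 toward Ly6Clo and 6 toward Ly6Chi, with a median difference of 0.00015, beside -0.01 over all genes. C1galt1c1 (Cosmc), the chaperone that the core 1 O-glycan synthase needs to fold, had a mean log2 intensity of 11.44 ± 0.14 (SD, n = 4) in Ly6Chi and 9.71 ± 0.14 (SD, n = 4) in Ly6Clo. It was 3.30-fold higher in Ly6Chi (difference -1.72, SE 0.09, limma adjusted p = 9.2e-08), while its client synthase C1galt1 was not called, at a difference of 0.09 (adjusted p = 0.64). The GDP-fucose transporter Slc35c1 was 1.36-fold higher in Ly6Chi. Named after their values were seen, the other 4 toward Ly6Chi were the galactosyltransferase B4galt1, the sialyltransferase St3gal3 and the tyrosine sulfotransferases Tpst1 and Tpst2, by -0.23, -0.42, -0.42 and -0.33. Toward Ly6Clo, the fucosyltransferase Fut4 was 1.40-fold higher (SE 0.07, adjusted p = 2.0e-04) and P-selectin, Selp, at least 1.12-fold. Selp lay below the median of all probe sets in every Ly6Chi array and passed the filter through Ly6Clo alone, so it had to differ; without it 7 of 15 genes were called, 1 of them toward Ly6Clo, and the median difference was -0.0039. The fucosyltransferase Fut7, which completes the sialyl Lewis x glycan, was not called, at a difference of 0.04 (adjusted p = 0.75). Without both samples numbered 1, 5 of these 8 calls were left, those of Selp, B4galt1 and Tpst2 being lost.

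Of 18 listed cytoskeletal linkers and partners of CD44, CD43 and PSGL-1, 16 were measured and 12 tested, of which 3 were called toward Ly6Clo and 2 toward Ly6Chi (median difference -0.02), beside 14.1% and 18.5% of all genes. The linkers ezrin (Ezr) and, named after its value was seen, moesin (Msn), which anchor CD43, CD44 and PSGL-1 to actin, were 1.62-fold (adjusted p = 1.3e-05) and 1.36-fold higher in Ly6Clo (adjusted p = 2.3e-04). Their relative radixin, Rdx, was not called, at a difference of -0.03 (adjusted p = 0.85). Cd74, the invariant chain that pairs with CD44 in a cytokine receptor, was 2.22-fold higher in Ly6Clo. Galectin 9 (Lgals9), a glycan-binding protein, was 3.36-fold higher in Ly6Chi, and cathepsin G (Ctsg), a granule protease that cleaves CD43, at least 1.39-fold. The sheddases Adam10 and Adam17 differed by -0.05 and -0.16 (adjusted p = 0.61 and 0.13). Without probe sets whose names end in _s_at, _x_at or _a_at, 3 genes of this list were called. The probe sets that stood for Cd74 and Lgals9 end in _a_at and were left out there, so the 2 counts cover different probe sets.

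Of 12 listed partners of CD47 and SIRP alpha, 10 were tested, of which 4 were called toward Ly6Clo and 0 toward Ly6Chi (median difference 0.05), beside the same 14.1% and 18.5% of all genes. The receptor Sirpa itself stood at 11.80 in Ly6Chi and 11.83 in Ly6Clo (difference 0.03, adjusted p = 0.77). The phosphatase SHP-2 (Ptpn11), which binds the inhibitory motifs of SIRP alpha and PECAM-1, was 1.81-fold higher in Ly6Clo (difference 0.85, SE 0.08, limma adjusted p = 1.1e-05). Calreticulin (Calr), an eat-me signal opposed by CD47, was 1.48-fold higher in Ly6Clo. Named after their values were seen, the phosphatase SHP-1 (Ptpn6) and the adaptor Fyb were 1.38-fold and 1.37-fold higher in Ly6Clo.

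Of 30 listed junctional and endothelial contact partners, 28 were measured and 20 tested, of which 8 were called toward Ly6Clo and 2 toward Ly6Chi (median difference 0.16), again beside 14.1% and 18.5% of all genes. L1cam, an immunoglobulin-family protein that binds itself and integrins, had 8.54 ± 0.15 (SD, n = 4) in Ly6Chi and 10.99 ± 0.19 (SD, n = 4) in Ly6Clo. It was 5.47-fold higher in Ly6Clo (difference 2.45, SE 0.10, limma adjusted p = 1.9e-08). Ceacam1, another homophilic adhesion protein with inhibitory motifs, was 2.42-fold higher in Ly6Clo. Named after their values were seen, the integrin chains Itgal, Itgb1, Itgav, Itgb2 and Itga4 were 2.26, 2.09, 1.74, 1.47 and 1.21-fold higher in Ly6Clo. Icam2, named likewise, was 1.43-fold higher in Ly6Clo. The integrin chains Itgam and Itgb3 were not called (differences 0.21 and 0.38, limma adjusted p = 0.27 and 0.079). Cd177, a surface protein known to bind PECAM-1, moved the other way from Pecam1, with 11.27 in Ly6Chi and 6.56 in Ly6Clo. Neutrophil markers, among which Cd177 is counted, had summed intensities of 5965 to 6351 in Ly6Chi and 1688 to 2024 in Ly6Clo. Of 10 tested, 5 were called higher in Ly6Chi, and Cxcr2 was below the median of all probe sets in every array. Cd177 is part of both the sums and the 5 calls, so neither is separate from its value. The part of neutrophils in the Cd177 value was not tested. Icam1, a ligand of beta-2 integrins, was 1.22-fold higher in Ly6Chi, a call lost without any one of Ly6Chi replicates 1 and 2 and Ly6Clo replicates 3 and 4 (adjusted p = 0.056 to 0.070). Jam2, a relative of JAM-A, differed by 0.11 (adjusted p = 0.26) and Cd6, the receptor of ALCAM, by -0.01 (adjusted p = 0.95), neither called. Both lay little above the median of all probe sets, 6.36. Jam2 stood at 6.75 in Ly6Chi and 6.85 in Ly6Clo, and Cd6 at 6.74 and 6.73.

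**Figure D3:**
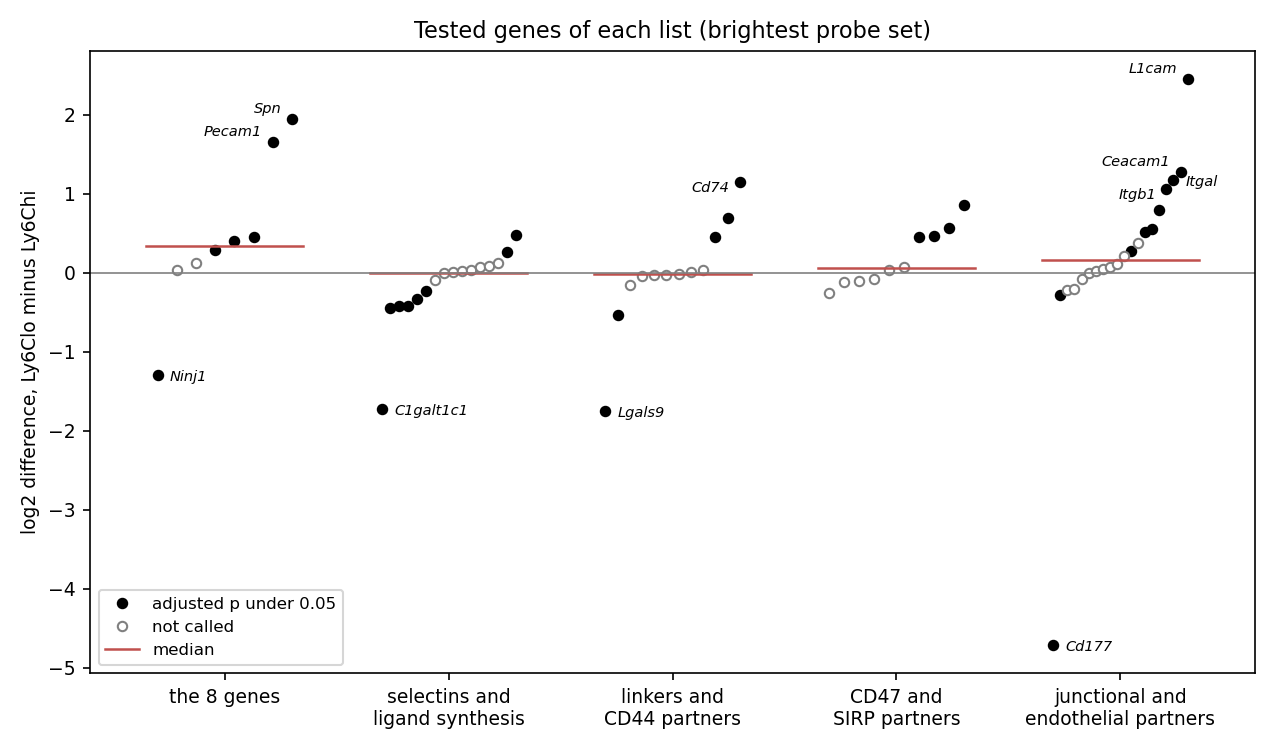
Log2 difference, Ly6Clo minus Ly6Chi (vertical axis), of each tested gene of the 8 and of the 4 partner lists, with filled points called, open points not called and a red line at each median. The medians are 0.35, 0.00015, -0.02, 0.05 and 0.16 from left to right, and Cd177 (-4.71) and L1cam (2.45) are the lowest and highest plotted points; the first median includes Pecam1 at its measured difference.

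The genes whose values followed Spn, Pecam1 and Ninj1 most closely over the 8 arrays were found among 11545 other genes by Pearson's r of log2 values, as a description, since all points share the split into subsets. For Spn they were the muscle-type enolase Eno3, Arap1 and Chmp2b (r = 0.998 each; 440 genes had r over 0.95). After each subset's mean was taken off, their r with Spn was 0.926, 0.92 and 0.974. Choosing the closest of so many genes over 8 arrays also favours high r within subsets, here and below. For Pecam1 they were Fam168a, the cyclin Ccnd2 and the NF-kB subunit Rela (r = 0.996, 0.994 and 0.992, and 0.955, 0.928 and 0.934 within subsets). Over 0.95 lay 284 genes. All Ly6Chi values of Pecam1 lay below the median of all probe sets and spread less than its Ly6Clo values (SD 0.08 and 0.35). Its r within subsets therefore rests mostly on the Ly6Clo arrays. For Ninj1 they were Iqgap2, Tmem165 and Olfm1 (r = 0.999, 0.998 and 0.998, and 0.871, 0.702 and 0.761 within subsets), and 795 genes had r over 0.95.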

How the data were processed

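The authors deposited probe set intensity values on a linear scale; GCRMA and MAS5 both appear in the submitters' processing notes, which do not say which of them made the values, so the normalization stays unknown. Per the labels' protocols, the in vitro transcription step ran for 64 h in place of 4 h; how this shifts signal along transcripts was not measured. Values (8.64 to 27145) were taken to log2 with no pseudocount. Genes came from the platform annotation (34945 probe sets with 1 symbol, 932 with several, 9160 unnamed); 64 control probe sets were left out, and no detection calls were used. Samples were grouped by their titles. The fit used limma 3.58.1 in R 4.3.3 (lmFit, eBayes, two-sided, no block); probe sets of different genes were not compared in level. For a gene with one subset's mean under the median of all probe sets, that median stood in for lower values, so its fold is a lower bound. Single values were compared with exact two-sided permutation tests over 70 orders (smallest p 0.0286).

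Genes named were all 8 members, the 3 most similar genes of each of the 3 most different members, and in each partner list the 2 called genes with the largest difference in each direction. C1galt1, Fut7, Rdx, Adam10, Adam17, Sirpa, Jam2, Cd6, Itgam and Itgb3, none of them called, and the marker genes Vwf, Klrd1 and Gzma were named after their values were seen. The members and lists were chosen with earlier results of these data known. On simulated data of 22831 probe sets for this comparison, the fit made 149 calls, 11 of them false. It found 12% of log2 changes sized 0.25, 66% of those sized 0.5, 98% of those sized 1 and 100% of those sized 2. Far fewer probe sets were changed there than the 7108 called in the data, which makes the adjusted threshold stricter. These shares therefore do not measure how many changes of each size were found in the data. The 22 alternative settings covered filters, normalization, pseudocounts, variance models, array weights, the choice of probe set, a threshold of 0.01, the omission of single arrays and a block for replicate number.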

Additional observations from a re-analysis of the deposited data

Results flagged for a closer look

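Of 48 groups of 4 arrays (24 probe sets in 2 subsets), 2 held an array far from the other 3, where chance flags about 1 in 20. For the dimmest probe set of Alcam, Ly6Chi replicate 4 lay low at 6.64, with the nearest array at 7.16 (gap 0.861 of the range); without it the difference was 0.24 (limma adjusted p = 0.29) and, as with it, not called. For the untested probe set of Cd44, Ly6Clo replicate 1 lay high at 5.20, with the nearest array at 5.04 (gap 0.846 of the range), and all its values were below the median of all probe sets.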

How the results depend on the processing

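Spn, Cd47 and Ninj1 kept their direction and call, and Selplg stayed uncalled, under all 23 settings. Their differences ranged from 1.85 to 2.02, 0.16 to 0.31, -1.32 to -0.97 and 0.01 to 0.048. Pecam1, whose direction and lack of overlap the filter fixed, measured 1.12 to 1.76 over 21 settings. It has no value with a limit in all 8 arrays or without suffixed probe sets. F11r was 0.34 to 0.54 with each array left out (adjusted p = 0.0082 to 0.053), was 0.46 but not called at a threshold of 0.01, and was 0.44 and not called without both samples numbered 1. With the mean of a gene's probe sets, Cd44 was called (0.21) and Alcam was not (0.23). With the replicate block 7164 probe sets, 12 probe sets of the 8 genes and 6 of the 8 genes were called; the block ended the call of the third Cd47 probe set (adjusted p = 0.066) and added the dimmest of Alcam (adjusted p = 0.045), which was also called without Ly6Clo replicate 3 (0.53, adjusted p = 0.016). Deviations of same-numbered samples correlated at 0.273, 0.34, -0.029 and -0.103. Replicate 2 matched its own number best in both directions and Ly6Clo replicate 1 matched Ly6Chi replicate 1 best, unlike the rest. These mixed values do not settle whether the numbers pair samples, and the main fit used no block. Over all settings 5 or 6 of the 8 genes and 9 to 12 of their probe sets were called, and 4892 to 7471 of all probe sets. The count for linkers and CD44 partners fell to 3 without suffixed probe sets, and that for selectin ligand synthesis to 5 without both samples numbered 1. Of uncalled values, a dim Cd47 probe set (0.024) changed sign as arrays were left out (-0.072 to 0.12), as did the gap between 2 Cd44 probe sets (-0.065 to 0.021) and, with a pseudocount of 64, that between the Spn probe sets (0.029). The cause was not tested in any of these cases.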
